A study of Rattus norvegicus with 18 samples.

Results

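A set of 87 genes had lower measured RNA levels in the visceral white adipose tissue (vWAT) of both groups of spontaneously hypertensive rats (SHRs) than in that of Wistar-Kyoto (WKY) rats. The genes were chosen by their measured levels, among the 32883 genes of the deposited table. A gene was included when its highest value in the 12 SHR rats was below its lowest value in the 6 WKY rats, the median WKY value was at least 2 times the median SHR value, and the mean WKY value was at least 1. Values are CPM, the counts of a gene per 1000000 counts of its library. The mitochondrial genome, chromosome 20 and 4 further genes were left out beforehand. Of the genes that the rule could choose, 11944 had a mean WKY level of at least 1 CPM, and the 87 genes were 0.728% of them. The same limits with the direction turned around were met by 57 genes. Since the differences between WKY and SHR chose the genes, they are described here without a test. The table holds Ensembl identifiers and no gene names, and no reference table used here pairs them, so genes are given by their position on the rat genome build Rnor_6.0, mostly by chromosome and start in megabases (Mb).

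RNA-seq was carried out on vWAT of 18 male rats, with 6 in each group. The WKY group held normotensive control rats, whose age the sources used here do not state and which had free access to water. The SHR-Water group drank tap water and the SHR-TMAO group drank water with 1 g/L trimethylamine N-oxide (TMAO), both for 22 weeks from an age of 7 to 8 weeks. The SHRs were assigned at random to water or TMAO and rats were housed 3 to a cage, but the labels do not tie rats to cages. Both strains are inbred, so strain and blood pressure cannot be told apart, and no WKY rat was given TMAO.

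White adipose tissue stores triglycerides in adipocytes and also contains vessels, fibroblasts, mesothelial cells, blood and immune cells. SHR and WKY are the usual pair of strains for the study of inherited hypertension, and they also differ in lipid and glucose metabolism. TMAO is formed in the liver from trimethylamine, which gut bacteria release from choline and carnitine. In bulk tissue, fewer cells of a type and less RNA per cell cannot be told apart. Markers of cell types could not be looked up without names and were not analysed here, so the tissue label was not checked against them.

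The libraries held between 10774133 and 18874161 counts. WKY replicates 1 and 3 had the lowest totals, and without both of them 112 genes met the rule, 85 of the 87 among them. Mitochondrial genes took 7.08% to 20.6% of the counts in WKY, 15.5% to 28.5% in SHR-Water rats and 11.1% to 20.8% in SHR-TMAO. Counts also depended on exon length to a differing degree. Spearman's rho of exon length with the log2 deviation of each gene from its 18-rat mean, taken across genes, lay between -0.45 and 0.28 in WKY rats, -0.23 and 0.48 in SHR-Water rats and -0.38 and 0.12 in SHR-TMAO rats. The median rho was -0.086 in WKY rats, 0.27 in SHR-Water rats and -0.23 in SHR-TMAO rats. The part of this length trend in the differences was not tested. When mitochondrial counts were left out of the totals, 76 genes met the rule, 75 of the 87 among them.

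By the rule, the 87 genes together made up less of the counts in SHR than in WKY. The sum is weighted to the most abundant genes, of which the highest had a WKY median of 1217 CPM. The summed level of the 87 genes was 5013 CPM in the lowest WKY rat, 6241 in the median and 7959 in the highest. In SHR-Water the sum ranged from 1663 to 2322 CPM with a median of 1791, and in SHR-TMAO from 1630 to 2314 with a median of 1979. The sums of the SHR groups covered nearly the same range. Highest SHR values of single genes were spread over both groups: a water rat was highest for 44 genes and a TMAO rat for 43. SHR-Water replicate 3 was the highest SHR rat for 15 genes and SHR-TMAO replicate 4 for 12. The lowest WKY rat was replicate 3 for 24 genes and replicate 4 for 17.

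**Figure D1:**
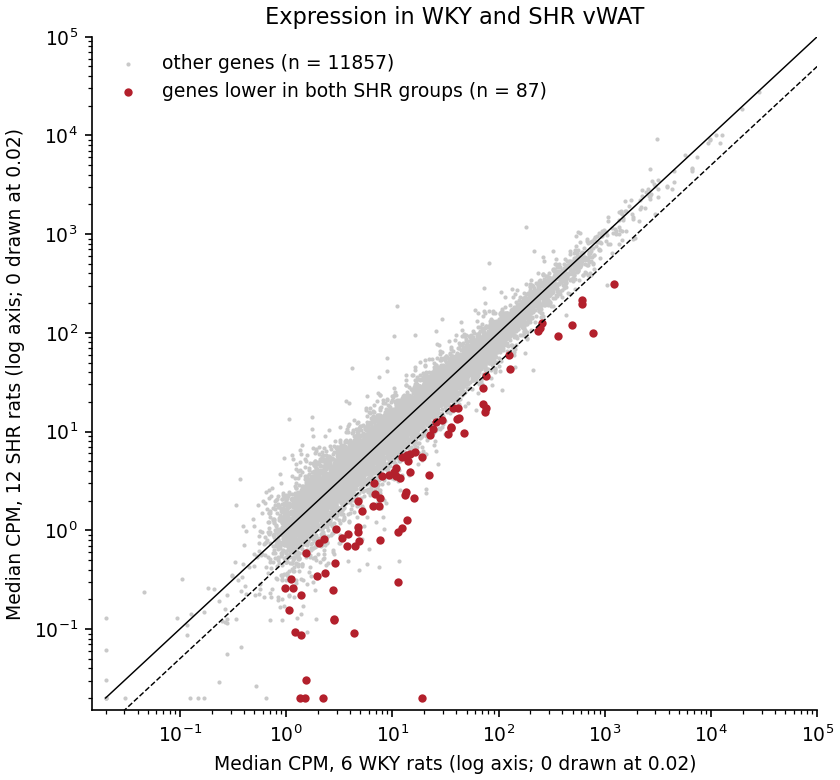
Median CPM in the 12 SHR rats against the median CPM in the 6 WKY rats, both on log axes, for 11944 genes with a mean WKY level of at least 1 CPM. The solid line marks equal levels and the dashed line a ratio of 2; the 87 chosen genes (red) lie below the dashed line over the whole range of levels, and 4 of them have an SHR median of 0.

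Levels in WKY spanned a wide range. The median WKY level over the 87 genes was 11.4 CPM against 15.8 over the 11857 other genes with a mean of at least 1. A level of at least 100 CPM was found for 11 genes, 10 to 100 CPM for 37 and less than 10 CPM for 39. Per kilobase of exon, the median WKY level was 6.12 FPKM (CPM divided by the exon length in kilobases) for the 87 genes and 6.31 FPKM for the others. The lowest gene of the set stood at 0.201 FPKM and the highest at 2189.

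The ratio of the median WKY to the median SHR level was between 2 and 3 for 30 genes, 3 and 5 for 28, 5 and 10 for 19, and above 10 for 10 genes, with a median of 3.74. For 11 genes the SHR median was raised to 0.184 CPM, the level of 3 counts in the median SHR library, so that their ratios are set by counting depth. The distance between the groups was often small. The lowest WKY rat exceeded the highest SHR rat by a median factor of 1.38. This factor was above 2 for 21 genes and below 1.1 for 16. Lower levels in every SHR rat were found for 163 of the 11944 genes (1.36%), of which 76 had a ratio under 2, and the opposite for 54. Both counts ask for a mean WKY level of at least 1 CPM. Genes high in SHR but below that level in WKY are thus missing from the 54, and the 2 counts are not alike. Another 429 genes had a ratio of at least 2 but overlapping rats.

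Values on both sides of the limits of the rule were as follows. Just inside, the smallest ratios of medians were 2.04, 2.08 and 2.08, and just outside they were 1.99, 1.98 and 1.97. The lowest mean WKY levels inside were 1.13, 1.19 and 1.23 CPM, and outside 0.823, 0.780 and 0.409 CPM. The smallest factors between the lowest WKY and the highest SHR rat were 1.004, 1.008 and 1.009 inside and 0.995, 0.994 and 0.992 outside.

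Where 3 values are given for a group, they are its lowest, median and highest rat. The most abundant gene of the set was ENSRNOG00000029886 on the minus strand of chromosome 10, from 15602794 to 15603649, with 3 exon blocks of 556 bases in all. Its level in WKY was 803 CPM in the lowest rat, 1217 in the median and 2023 in the highest. In SHR-Water it was 211, 309 and 499 CPM, and in SHR-TMAO 185, 319 and 788 CPM. The highest TMAO rat came close to the lowest WKY rat, and the SHR groups overlapped. This gene alone had a fitted log2 fold change of -2.09 (SE 0.31) in SHR-Water rats and -1.66 (SE 0.38) in SHR-TMAO against WKY.

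A wider gap was found for the chromosome 10 gene at 86.951 Mb (86950557 to 86962578, plus strand). WKY rats had 426, 779 and 1086 CPM, SHR-Water rats 83.0, 102 and 154, and SHR-TMAO rats 77.3, 94.1 and 180. Its fitted log2 fold changes against WKY were -2.90 (SE 0.25) and -2.73 (SE 0.30). The lowest WKY rat had 2.37 times the level of the highest SHR rat, the widest gap among the 12 most abundant genes of the set.

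On chromosome 8, the gene at 97.439 Mb (97439161 to 97458287, plus strand) differed between the strains with little spread within SHR. Its levels were 437, 605 and 694 CPM in WKY, 168, 192 and 211 in SHR-Water rats, and 170, 197 and 226 in SHR-TMAO. The ranges of the SHR groups nearly coincided. By contrast, the chromosome 12 gene at 16.170 Mb varied within every group. It had 373, 605 and 1151 CPM in WKY, 105, 166 and 303 in SHR-Water rats, and 153, 307 and 318 in SHR-TMAO, so that the median TMAO rat stood above the highest water rat.

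Chromosome 12 also held the gene at 36.638 Mb (36638457 to 36642734, plus strand), with 367, 496 and 583 CPM in WKY, 111, 173 and 207 in SHR-Water rats and 64.6, 103 and 123 in SHR-TMAO. Here the TMAO rats lay mostly below the water rats. For the chromosome 14 gene at 19.176 Mb the levels were 285, 361 and 533 CPM in WKY, 59.4, 102 and 129 in SHR-Water rats and 66.3, 84.3 and 107 in SHR-TMAO. The SHR groups overlapped at this gene.

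Of the other 5 genes above 100 CPM, the longest, at 117.570 Mb on chromosome 3 with 66 exon blocks, had a WKY median of 259 CPM against 131 in SHR-Water rats and 118 in SHR-TMAO, a ratio of 2.08. At 210.721 Mb on chromosome 2 the medians were 245, 113 and 114 CPM, a ratio of 2.17, and 3 genes annotated on the same strand overlap this one. Reads that overlap several genes on their strand are not counted by default, so values of overlapping genes are less certain. The chromosome 8 gene at 61.532 Mb had medians of 235, 119 and 80.9 CPM, the chromosome 5 gene at 173.079 Mb 125, 62.1 and 56.5, and the chromosome 3 gene at 67.636 Mb 127, 45.2 and 38.4. In each case no SHR rat reached the lowest WKY rat. The gene at 245.238 Mb on chromosome 1 completed the 12 most abundant, with medians of 75.8, 47.7 and 34.3 CPM and a factor of only 1.05 between the groups' nearest rats.

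**Figure D2:**
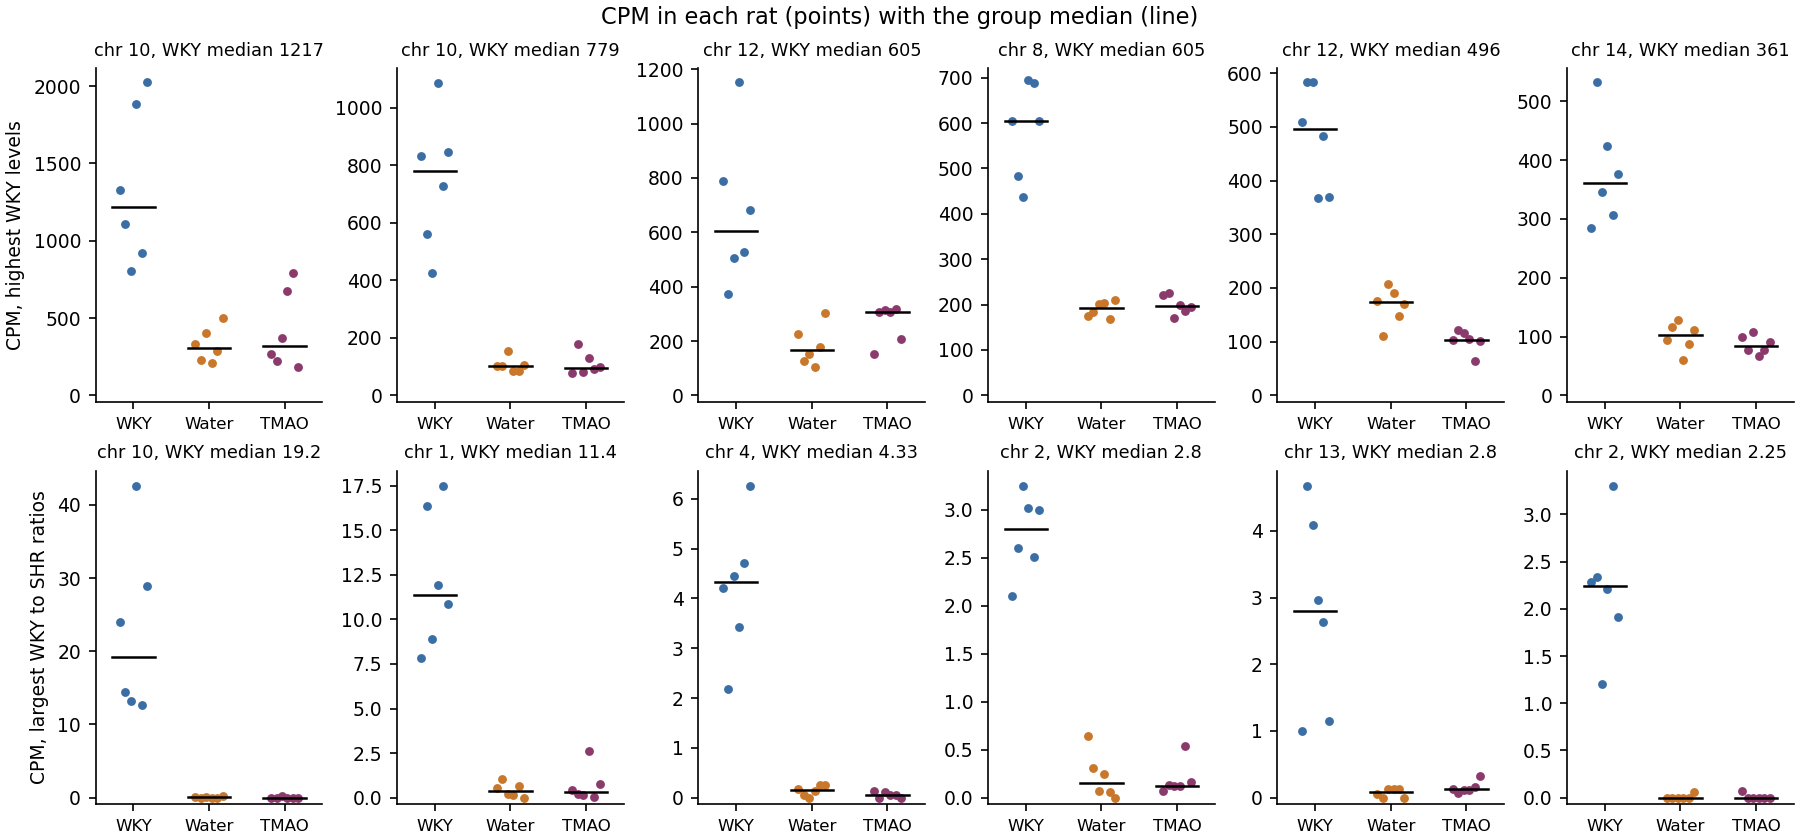
CPM in each of the 18 rats for the 6 genes with the highest mean WKY level (top row) and the 6 with the largest ratio of WKY to SHR medians not already shown (bottom row). Points are rats, lines are group medians and each panel has its own linear scale; in all 12 panels every WKY rat lies above every SHR rat, as the rule requires, and in the bottom row the SHR points lie near 0.

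At the other end were genes with almost no reads counted in SHR. Reads of both strains were aligned to the same genome build, Rnor_6.0. The part of strain differences from that build in these low counts was not tested. ENSRNOG00000045989, on the minus strand of chromosome 10 from 15577249 to 15577977, had 12.7 CPM in the lowest WKY rat, 19.2 in the median and 42.6 in the highest. In SHR-Water its levels were 0, 0.029 and 0.254 CPM and in SHR-TMAO 0, 0 and 0.238 CPM. No SHR library held more than 4 counts of it, and 8 of the 12 held none. With the SHR median set at 3 counts the ratio was 104, the largest of the set, and the lowest WKY rat had 49.9 times the level of the highest SHR rat.

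The chromosome 2 gene at 80.949 Mb, with 61 exon blocks over 10410 bases, was likewise almost unread in SHR. It had 1.21, 2.25 and 3.30 CPM in WKY and at most 1 count in any SHR library, with 10 of the 12 at 0. For the chromosome 4 gene at 14.072 Mb (14071507 to 14113255, plus strand) the levels were 2.18, 4.33 and 6.26 CPM in WKY, 0, 0.149 and 0.254 in SHR-Water rats and 0, 0.057 and 0.134 in SHR-TMAO. No SHR library held more than 4 counts of it, and 1 gene on the same strand overlaps it. Such levels in SHR are at the limit of detection, and a fold change against them is set by the depth.

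Another gene with its SHR median at 0 lay at 63.119 Mb on chromosome 8. This single-block gene of 213 bases had 0.584, 1.35 and 2.101 CPM in WKY and at most 2 counts in an SHR library. The last of these 4, at 68.489 Mb on chromosome 18, had 0.698, 1.51 and 2.34 CPM in WKY and up to 7 counts in an SHR library. The chromosome 19 gene at 15.839 Mb had 0.698, 1.55 and 2.78 CPM in WKY and no count in 6 of 12 SHR libraries. In all 3 the lowest WKY rat itself had less than 1 CPM.

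Other large ratios came from genes that were detected in most SHR rats. The chromosome 1 gene at 227.757 Mb had 7.86, 11.4 and 17.5 CPM in WKY, 0, 0.361 and 1.04 in SHR-Water rats, and 0.053, 0.299 and 2.60 in SHR-TMAO, a ratio of 37.7. At 38.828 Mb on chromosome 12 the levels were 9.72, 12.4 and 16.2 CPM in WKY, 0.635, 1.65 and 2.28 in SHR-Water rats, and 0.159, 0.781 and 2.38 in SHR-TMAO, a ratio of 11.9. The SHR rats of both genes lay well below the lowest WKY rat. The genes at 115.824 Mb on chromosome 2 and 77.485 Mb on chromosome 13 had WKY medians of 2.80 CPM each, and their SHR medians of 0.125 and 0.122 CPM were below the floor. The chromosome 1 gene at 184.299 Mb had medians of 2.74 CPM in WKY and 0.250 in SHR, and the chromosome 18 gene at 74.546 Mb 7.59 and 0.804, ratios of 10.9 and 9.43.

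The 87 genes lay on 18 chromosomes, 45 on the plus and 42 on the minus strand. Chromosome 1 held 14, chromosome 2 held 11, chromosome 3 held 9 and chromosome 13 held 8. None was on chromosome 11, 16 or Y. Relative to the genes with a mean WKY level of at least 1 CPM on the same chromosome, chromosome 13 had the highest share, 2.02% of 396, followed by chromosome 2 with 1.40% of 786. Chromosome 10, with 7 genes, was near the share over all chromosomes at 0.649%.

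**Figure D3:**
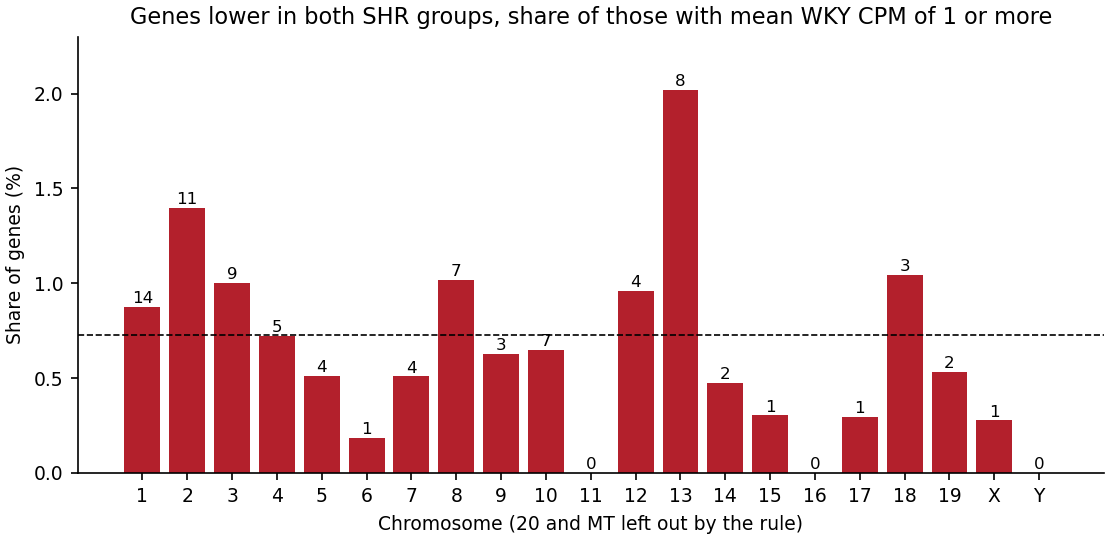
Share of the genes with a mean WKY level of at least 1 CPM that belong to the set, per chromosome, with the number of chosen genes above each bar. The dashed line is the share over all chromosomes, 0.728%; chromosome 13 stands highest at 2.02% and chromosomes 11, 16 and Y have none.

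Some of the genes were neighbours. When genes that start within 1 Mb of each other were joined, 18 of the 87 fell into 6 runs, and 12 of these into 3 runs of 3 or more. The densest was on chromosome 1, where 5 of the 7 annotated genes between 227.670 and 227.965 Mb belonged to the set. At 227.893 Mb the levels were 5.11, 13.4 and 28.3 CPM in WKY, 0.638, 2.14 and 3.78 in SHR-Water rats and 1.12, 2.47 and 2.70 in SHR-TMAO. The gene at 227.957 Mb on the opposite strand had 2.14, 3.73 and 5.55 CPM in WKY, 0.063, 0.277 and 1.94 in SHR-Water rats and 0.534, 1.26 and 2.12 in SHR-TMAO. At both, all WKY rats were above the SHR rats, by a factor of only 1.009 at the latter. The genes at 227.670 and 227.744 Mb had WKY medians of 0.970 and 2.88 CPM and SHR medians of 0.259 and 0.461 CPM. The gene at 227.744 Mb spans those at 227.757 and 227.893 Mb on the same strand. These 3 may thus not be independent in the counts, but whether their exons overlap was not checked. The only other gene of the span with a mean WKY level of at least 1 CPM lay at 227.919 Mb, with medians of 7.96 CPM in WKY and 5.48 in SHR, a ratio of 1.45.

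On chromosome 10, 4 of the 50 genes between 14.701 and 15.604 Mb belonged to the set. The span was drawn from its first to its last chosen gene, so that chosen genes stand at its ends by construction. At its start, the gene at 14.701 Mb had 3.34, 4.44 and 6.48 CPM in WKY, 0.124, 0.281 and 1.21 in SHR-Water rats and 0.477, 1.23 and 1.55 in SHR-TMAO. Its neighbour at 14.723 Mb had 7.70, 11.4 and 12.5 CPM in WKY, 0.122, 0.377 and 2.21 in SHR-Water rats and 0.538, 1.39 and 3.26 in SHR-TMAO. Every TMAO rat lay above the median water rat at both. At the far end lay the genes at 15.577 and 15.603 Mb described above. Between this pair, at 15.589 Mb, a gene outside the set had medians of 429 CPM in WKY and 152 in SHR, a ratio of 2.82 with overlapping rats. The other 28 genes of the span above 1 CPM had ratios from 0.334 to 2.87, and 6 of all 29 had the higher median in SHR.

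The run on chromosome 13 held 3 of 10 genes between 47.342 and 47.624 Mb. At 47.342 Mb the levels were 9.23, 13.9 and 29.7 CPM in WKY, 0.254, 1.26 and 1.35 in SHR-Water rats and 0.647, 1.75 and 2.38 in SHR-TMAO. The gene at 47.603 Mb had 30.6, 40.6 and 51.5 CPM in WKY, 7.30, 11.01 and 24.8 in SHR-Water rats and 8.80, 15.9 and 20.5 in SHR-TMAO, and the gene at 47.618 Mb had medians of 2.35, 0.317 and 0.411 CPM. The 3 genes between them that were above 1 CPM had ratios of 0.958, 0.960 and 1.04. The span starts and ends with chosen genes by construction, so nothing is read from the contrast of its ends and its middle. Whether near-identical copies within a run share reads was not tested.

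**Figure D4:**
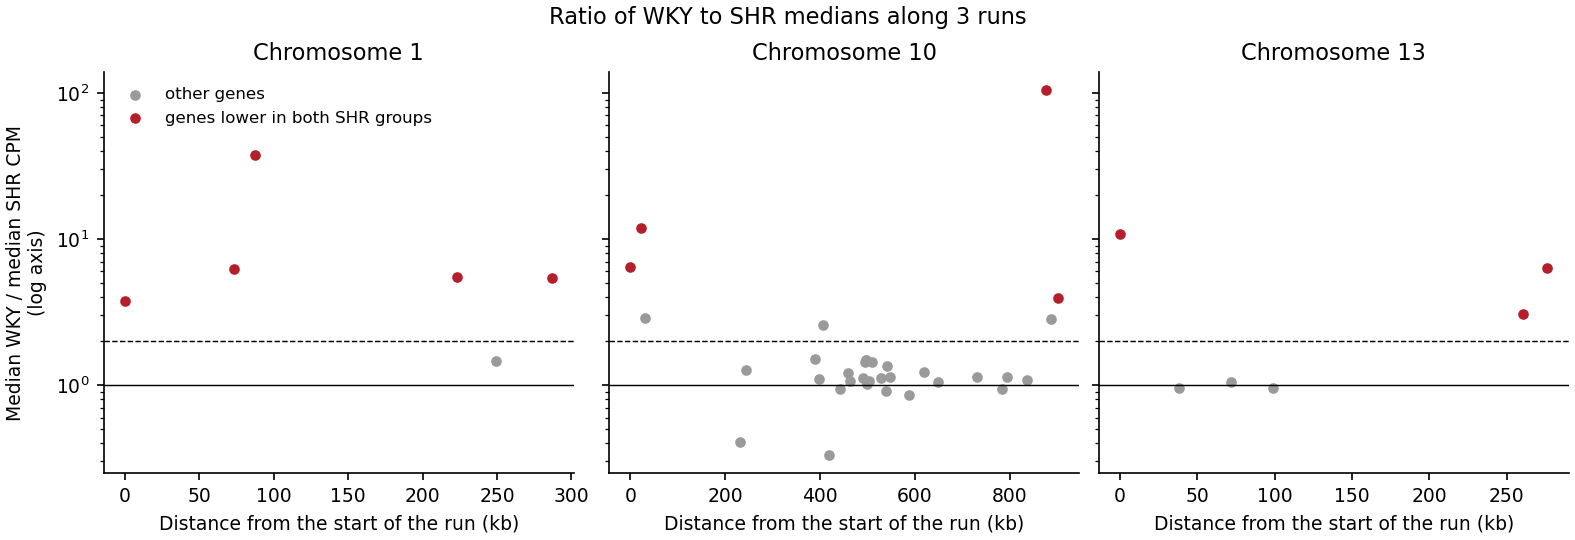
Ratio of the median WKY to the median SHR CPM (log axis) against the distance from the start of the run in kilobases, for the 3 runs of 3 or more chosen genes (red) and the other genes of the span with a mean WKY level of at least 1 CPM (grey). The solid line marks a ratio of 1 and the dashed line a ratio of 2; the chosen genes have ratios of 3.05 to 104, the largest set by the counting floor, and most grey points lie near 1.

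The remaining runs were pairs. On chromosome 3 the genes at 8.742 and 8.744 Mb overlap on opposite strands. The former had medians of 33.5 CPM in WKY, 8.72 in SHR-Water rats and 10.1 in SHR-TMAO, and the latter 29.2, 13.2 and 13.1. Counting used the strand of the reads, so the pair was counted apart. The pair on chromosome 5 lay at 48.225 and 48.303 Mb, with WKY medians of 1.17 and 13.7 CPM and SHR medians of 0.259 and 5.80, and that on chromosome 18 at 68.489 and 68.984 Mb, with WKY medians of 1.51 and 4.78 CPM and SHR medians of 0 and 1.08.

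The genes had somewhat less exon sequence than the others. The median exon length of a gene, all its exons together, was 1901 bases (25th to 75th percentile 1397 to 2718). For the 11857 others it was 2350 (1507 to 3633), and the median number of separate exon blocks was 8 against 9. A single block was found for 6 of the 87 genes (6.90%) and for 4.82% of the others. The single-block gene at 198.382 Mb on chromosome 2 had 9.82, 15.9 and 22.4 CPM in WKY, 1.30, 3.16 and 9.59 in SHR-Water rats and 1.55, 1.94 and 7.90 in SHR-TMAO. That at 19.715 Mb on chromosome 10 had medians of 4.81, 0.816 and 0.692 CPM, that at 82.855 Mb on chromosome 3 14.7, 3.66 and 4.29, and that at 51.297 Mb on chromosome 13 1.53, 0.800 and 0.469. A gene on the same strand overlapped 8 of the 87, and one on the other strand overlapped 13.

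The spread between rats of a group, as the standard deviation of log2(CPM + 0.5), had a median over the 87 genes of 0.35 in WKY, 0.41 in SHR-Water rats and 0.37 in SHR-TMAO. The medians over the other genes were 0.36, 0.37 and 0.30. The rule itself favours genes of low spread, so these values are a description.

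Fitted by edgeR's quasi-likelihood model against WKY, 84 of the 87 genes passed the filter on low counts in each comparison. In SHR-Water 80 of them had an adjusted p under 0.05 with a log2 fold change of -1 or less, which 2.13% of all 13017 genes tested had. In SHR-TMAO 81 did, against 2.17% of 12833 genes. The median fitted log2 fold change was -1.96 in SHR-Water rats and -1.91 in SHR-TMAO, where the medians of all genes were -0.0041 and -0.021. These counts follow from the rule, which used the same rats, and genes passed the filter through the WKY group, so nothing is read from them. Both comparisons share the WKY rats.

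Whether TMAO changed these genes in SHR was compared next, since the rule did not use the difference between the SHR groups. It did hold every SHR rat, TMAO rats included, below the lowest WKY rat. A gene that TMAO raised into the WKY range could thus not be chosen, a limit that the shares of all genes below do not have. Of the 87 genes, 66 had enough counts in the SHR groups to be tested. The other 21 had at most 43 counts in any SHR library and did not pass the filter on low counts. Without the filter all 87 were tested, and 11 had an unadjusted p under 0.05 but none was called, nor was any of all 20751 genes. For this setting the share of all genes with an unadjusted p under 0.05 was not counted. None of the 66 was differentially expressed between SHR-TMAO and SHR-Water (edgeR's quasi-likelihood test, Benjamini-Hochberg adjusted p under 0.05, log2 fold change of 1 or more either way). Over all 12852 genes tested the share called was 0%, but this count rested on single libraries: it was 685 without SHR-Water replicate 1 and 442 without SHR-TMAO replicate 1. Of the set, 0 and 1 genes were then called. An unadjusted p under 0.05 was found for 9 of the 66 genes (13.6%), 5 lower and 4 higher with TMAO, against 25% of all genes. An adjusted p under 0.1 was found for 3 of the 66, against 5.91% of all genes. DESeq2 called 1 of the 71 genes for which it gave an adjusted p, against 405 of all 20751 genes fitted. Limma called 1 of the 66 genes, against 1087 of all 12852. DESeq2 and limma called different genes of the set. With no limit on the fold change, DESeq2 had 4 of its 71 genes at an adjusted p under 0.05, limma 9 of 66 and edgeR 0 of 66. The shares of all genes in DESeq2 and limma were not counted without that limit, so nothing is read from these counts.

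The fitted changes were small and went both ways. With TMAO 39 of the 66 genes were higher and 27 lower, with a median log2 fold change of 0.08 (25th to 75th percentile -0.22 to 0.39), against -0.01 (-0.29 to 0.25) over all genes tested. The median standard error of a gene was 0.29, which is the error of single genes and not of the median change of 0.08. The median deviation of the set from its group mean had an SD between rats of 0.12. The fitted changes ranged from -0.81 to 1.61, and 3 genes had a change of at least 1, all higher with TMAO.

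**Figure D5:**
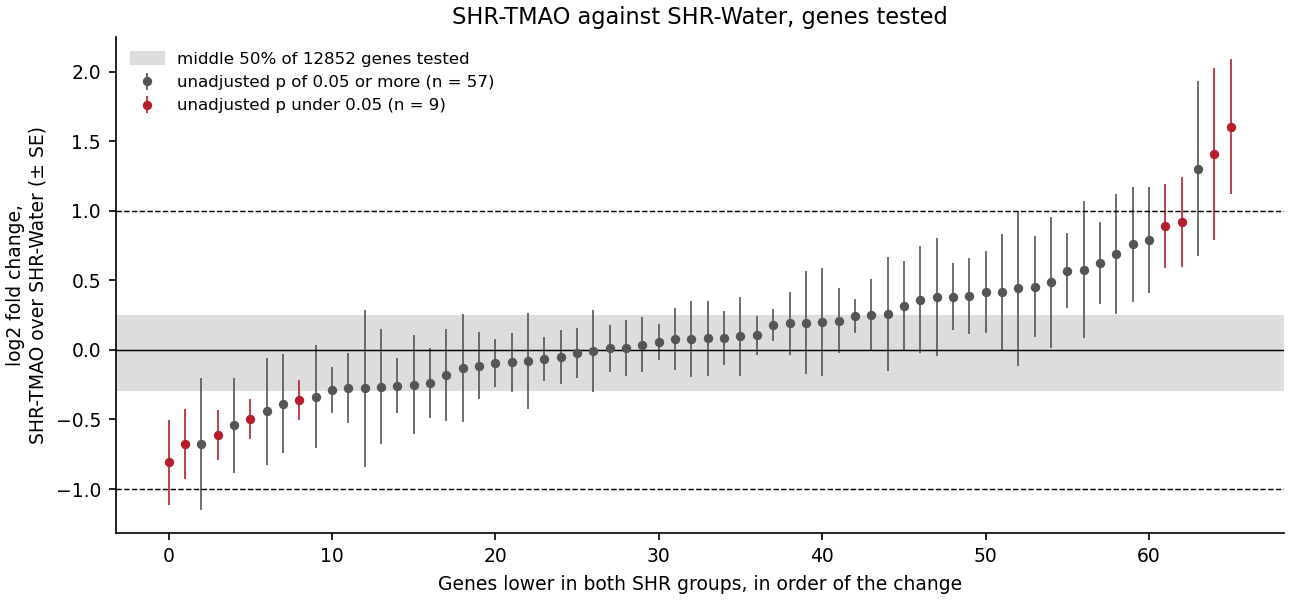
Fitted log2 fold change of SHR-TMAO over SHR-Water with its standard error (bars) for the 66 genes tested, in order of the change. Red marks the 9 genes with an unadjusted p under 0.05, the grey band the middle 50% of all 12852 genes tested (-0.29 to 0.25) and the dashed lines a change of 1; no gene had an adjusted p under 0.05.

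Lower levels with TMAO were clearest at 61.532 Mb on chromosome 8 (61532465 to 61567510, plus strand). SHR-Water rats had 115, 119 and 138 CPM and SHR-TMAO rats 59.4, 80.9 and 96.1 CPM, beside 186, 235 and 290 CPM in WKY. All TMAO rats were below all water rats, and all water rats below all WKY rats. The log2 fold change with TMAO was -0.49 (SE 0.14, edgeR adjusted p = 0.0931), which missed both thresholds. Over the alternatives this gene's adjusted p ran from 0.0188 (limma) to 0.323 (edgeR with a replicate block), under 0.05 in 3 of 18, and its change stayed under 1. For the chromosome 12 gene at 36.638 Mb, whose levels are given above, the log2 fold change was -0.61 (SE 0.18, edgeR adjusted p = 0.0931, and 0.0229 to 0.323 over the alternatives), and the SHR groups overlapped. The only other gene of the set whose SHR groups did not overlap was that at 48.303 Mb on chromosome 5, with 5.93, 6.85 and 8.17 CPM in SHR-Water rats and 4.47, 4.96 and 5.67 in SHR-TMAO. Its log2 fold change was -0.36, the TMAO rats being lower. Of all 12852 genes tested, 0.708% did not overlap between the SHR groups.

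Higher levels with TMAO were found in the fit for the chromosome 10 gene at 14.701 Mb, with a log2 fold change of 1.61 (SE 0.48, edgeR adjusted p = 0.0971). The highest count of this gene in an SHR library was 25. At 21.164 Mb on chromosome 14, a single-block gene of 456 bases, SHR-Water rats had 1.28, 2.89 and 4.75 CPM and SHR-TMAO rats 3.36, 4.60 and 6.89 CPM, beside 8.54, 10.9 and 20.9 in WKY. The change was 0.89 (SE 0.30, edgeR adjusted p = 0.117). The chromosome 7 gene at 38.820 Mb had 3.81, 11.4 and 19.6 CPM in SHR-Water, 8.07, 17.98 and 29.7 in SHR-TMAO and 30.4, 42.3 and 53.1 in WKY. Its change was 0.92 (SE 0.32, edgeR adjusted p = 0.125). In all 3 genes the rats of the SHR groups overlapped. Their exon lengths were 1224, 456 and 2015 bases. The genes with lower levels at 61.532, 36.638 and 48.303 Mb had 8077, 2545 and 2830 bases. The part of the length trend of the libraries in these changes was not tested.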

How the data were processed

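RNA-seq of vWAT from 18 rats (6 WKY, 6 SHR-Water, 6 SHR-TMAO) was used, with groups and replicate numbers from the sample labels. The authors deposited whole-number read counts per gene, neither normalized nor filtered. Per the table's header they were made with featureCounts 1.6.3, on the strand of the reads, with Ensembl release 96 exons of Rnor_6.0, while the methods name GENCODE. The submitters' processing notes list cutadapt 2.5, HISAT2 2.1.0 and DESeq2. The deposited exon length per gene served for FPKM, the length trend of each library and the comparison of exon lengths. CPM, the rule and FPKM were computed in Python 3.11.15. Comparisons between 2 groups used edgeR 4.0.16 in R 4.3.3 (TMM, filterByExpr, quasi-likelihood test, Benjamini-Hochberg over all genes tested, log2 fold change of at least 1). The standard errors (SE) were derived from this test, as the absolute log2 fold change divided by the square root of its F value. Alternatives were DESeq2 1.42.0, limma 3.58.1 (voom with sample quality weights), other scalings, filters and limits, a replicate block and leaving out each rat. Totals of 10774133 to 18874161 counts set the precision, and values of few counts are the least certain.

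The genes, lists and tests were chosen with earlier results of these data known. Genes to be named were the 12 of highest mean WKY CPM, the 12 of largest ratio, the 5 of smallest p between the SHR groups, runs of 3 or more genes within 1 Mb and the 3 genes nearest each limit. The rule for names asked for gene symbols, and 0 of the 32883 identifiers matched the reference names, so positions are given instead. The pairs, the single-block genes, the genes with an SHR median of 0, the gene at 15.589 Mb and the genes without overlap between the SHR groups were added after their values were seen. The gene lists and cell type markers were not analysed here. Tested on simulated data for SHR-TMAO against SHR-Water, the edgeR fit called 200 of 200 genes changed 3-fold and 5 unchanged genes among 12852. The simulation gave every gene the same dispersion, added no trend with exon length and left genes of low level unchanged. It therefore checks that the fit runs and does not give its power for the genes of the set.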

Additional observations from a re-analysis of the deposited data

Results flagged for a closer look

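For the 39 genes named by the rule and for their summed level, each group of 6 rats was checked for a rat far from the others (a gap to the nearest rat, as a share of the group's range, above Dixon's critical value). Of 120 groups, 15 had one. Chance gives about 1 in 20 even without a cause, but only for normally distributed values. Several of these groups hold values near 0, which are not, so the 15 cannot be set against that rate. In SHR-Water replicate 3 the levels were 1.94 CPM at 227.957 Mb on chromosome 1 (other water rats up to 0.522), 1.21 at 14.701 Mb on chromosome 10 (up to 0.444), 154 at 86.951 Mb on chromosome 10 (up to 105) and 24.8 at 47.603 Mb on chromosome 13 (up to 12.98). This library had the lowest total of its group, 14939661 counts, and the lowest mitochondrial share, 15.5%. Their part in these values was not tested.

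High rats were also found in SHR-TMAO: replicate 4 had 2.60 CPM at 227.757 Mb on chromosome 1 (others up to 0.742), replicate 3 had 2.38 at 38.828 Mb on chromosome 12 (up to 0.807), replicate 5 had 0.534 at 115.824 Mb on chromosome 2 (up to 0.159) and replicate 2 had 3.24 at 143.821 Mb on chromosome 7 (up to 2.19). WKY replicate 2 had 29.7 CPM at 47.342 Mb on chromosome 13 (others up to 15.3). A low rat was SHR-Water replicate 2, with 44.8 CPM at 173.079 Mb on chromosome 5 (others from 58.3).

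Further cases rest on a few counts. At 15.577 Mb on chromosome 10, SHR-Water replicate 6 had 0.254 CPM and SHR-TMAO replicate 3 had 0.238. At 80.949 Mb on chromosome 2, SHR-Water replicate 6 had 0.0634 CPM and SHR-TMAO replicate 1 had 0.0672. SHR-TMAO replicate 1 had 0.202 CPM at 15.839 Mb on chromosome 19.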

How the results depend on the processing

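The number of genes that met the rule was 87 and moved by less than 1.5 times under 25 of 26 alternatives. Most of these left out rats, which can only loosen the condition on overlap, or lowered a limit, which can only add genes. Their counts could thus hardly fall, and the tally is no measure of stability. A ratio limit of 4 left 39 genes and one of 1.5 gave 127. TMM scaling gave 85 genes, 73 of the 87 among them, and DESeq2 size factors 86, with 72 shared, so single genes depend on the scaling more than their number. Leaving out each rat gave 87 to 112 genes, the most without WKY replicate 2. Leaving out WKY replicates 1 and 3 was chosen after seeing the data.

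Between SHR-TMAO and SHR-Water, the number of genes of the set called was 0, and 1 with DESeq2 (10, 14.701 Mb, log2 fold change 1.63, adjusted p = 0.0340), 1 with limma (14, 21.164 Mb, 1.07, adjusted p = 0.0119) and 0 to 1 when each rat was left out, the 1 (7, 38.820 Mb, 1.08, edgeR adjusted p = 0.0355) without SHR-TMAO replicate 1. Without a fold limit it was 0 in edgeR, 4 in DESeq2, 9 in limma and 2 in edgeR without SHR-TMAO replicate 1. The matching shares of all genes in DESeq2, limma and the fit without that rat were not counted. The adjusted p over the alternatives ran from 0.0340 to 0.323 at 14.701 Mb, 0.0119 to 0.323 at 21.164 Mb and 0.0355 to 0.324 at 38.820 Mb. Over all genes, edgeR called 0, DESeq2 405, limma 1087, and edgeR 685 without SHR-Water replicate 1 and 442 without SHR-TMAO replicate 1. The 5 named changes kept their sign under every alternative run, and the median change of the tested genes stayed between 0.02 and 0.14 (0.02 to 0.13 when each rat was left out), less than 1 SD between rats (0.12) from 0.08. The medians against WKY ranged from -2.02 to -1.87 in SHR-Water and from -1.98 to -1.87 in SHR-TMAO.

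The labels give replicate numbers no shared cage, litter or day. Deviations of same-numbered rats correlated at -0.40 to -0.01 between the SHR groups. Between WKY and SHR-TMAO the range was -0.24 to 0.29 (1 of 6 pairs over 0.1). Between WKY and SHR-Water it was -0.30 to 0.55, with 5 of 6 pairs over 0.1 and 4 of 6 rats closest to their own number. In no comparison was every pair over 0.1. Why most same-numbered WKY and SHR-Water rats deviated alike was not tested. With the replicate number as a block, the median change was 0.09 and 0 genes were called, and over all genes the calls against WKY moved from 445 to 591 in SHR-Water and from 464 to 341 in SHR-TMAO. The medians of the set against WKY were -1.998 and -1.893. Genes of few counts in SHR are limited by depth: a count of 3 in the median SHR library is 0.184 CPM.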
